A study of Mus musculus with 20 samples.

Results

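The 40 genes described here are genes that cells switch on to copy their DNA (S phase) and to divide (mitosis). They were taken as a fixed list of symbols, drawn up with earlier results of these data known. All 40 were found among the 35204 genes of the table of estimated counts, and all 40 passed the filter of 0.5 CPM (counts scaled to the size of the library) in at least 1 mouse. By role, 16 members belong to S phase, 20 to mitosis and 4 to neither group, namely the transcription factors E2f1 and Foxm1 and the general markers Mki67 and Top2a.

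RNA sequencing was performed on the terminal ileum of 20 female C57Bl6 mice, with 5 mice in each of 4 groups. Mice were fed a control diet (CD), an amino acid diet, or the same diet lacking tryptophan (TDD), from 7 weeks of age and for 3 weeks. On each diet, 5 mice remained specific pathogen-free (SPF) and 5 were given antibiotics (ABX), a mixture of ampicillin, vancomycin, metronidazole, neomycin and gentamycin in sweetened water. These ABX groups are written CD+ABX and TDD+ABX, and no engineered allele is named for any mouse. The comparisons ask how loss of dietary tryptophan changes the ileum with and without an intact microbiota. Each library came from a short piece of whole intestinal wall, so fewer dividing cells and less of each RNA per dividing cell cannot be told apart in any result below.

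In the small intestine, division is confined largely to the crypts, where stem cells and their rapidly dividing progeny replace the cells of the villus. Before S phase, the MCM helicase is loaded onto DNA with the help of Cdc6 and Cdt1, and E2F transcription factors switch on the genes for replication and for making nucleotides. The genes for mitosis come on later, through CHR and CCAAT elements in their promoters and with B-Myb and Foxm1. Lymphocytes that divide in the gut wall use the same genes.

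Motifs of these kinds were searched for in the reference sequence of the members. RefSeq promoter windows on GRCm38.p6, from 250 bases before to 50 bases after the start of the gene, were found for 33 of the 40 members (35 windows). Aurkb, Ccna2, Foxm1, Gins2, Kif20a, Mcm4 and Tpx2 had no window and were not analysed here. An E2F motif (TTTCCCGC, TTTCGCGC, TTTGCCGC or TTTGGCGC, on either strand) was present in 8 of 16 windows of S phase members (50%), in 1 of 16 windows of mitosis members (6.25%) and in 2.26% of all 32851 windows. The CHR motif (TTTGAA, on either strand) was present in 1 of 16 S phase windows (6.25%), in 11 of 16 mitosis windows (68.8%) and in 17.9% of all windows. The CCAAT box (CCAAT, on either strand) lay in 68.8%, 87.5% and 37.4% of these windows. Neighbouring E2F matches can overlap, as in Mcm6, matches of different motifs can share bases at their ends, and a match is a run of letters and not a measured binding site.

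The 150 bases before the RefSeq start are shown for 6 members, named below, whose upstream bases hold a motif and overlap no exon of the GENCODE M21 annotation, with E2F, CHR and CCAAT matches in capitals. Within these bases, Cdc6 and Mcm6 carry E2F matches and Mcm2, Mki67, Top2a and Kif11 carry CHR matches. All but Cdc6 and Mcm2 also carry a CCAAT box there, and the window of Mcm2 holds a CCAAT box further upstream. The bases of Cdc6 lie in an intron of the annotated gene, which starts further upstream.
Cdc6 (chr11:98908001-98908150, plus strand): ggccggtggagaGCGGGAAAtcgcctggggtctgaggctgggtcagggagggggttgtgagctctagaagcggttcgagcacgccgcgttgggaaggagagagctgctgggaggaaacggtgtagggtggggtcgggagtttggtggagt
Mcm6 (chr1:128359706-128359855, minus strand): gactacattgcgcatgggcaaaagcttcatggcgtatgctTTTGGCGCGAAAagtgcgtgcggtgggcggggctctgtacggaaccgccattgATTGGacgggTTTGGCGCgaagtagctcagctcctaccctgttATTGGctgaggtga
Mcm2 (chr6:88898781-88898930, minus strand): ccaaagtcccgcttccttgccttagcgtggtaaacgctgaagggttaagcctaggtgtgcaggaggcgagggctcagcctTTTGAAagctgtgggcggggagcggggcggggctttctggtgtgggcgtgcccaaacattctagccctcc
Mki67 (chr7:135716380-135716529, minus strand): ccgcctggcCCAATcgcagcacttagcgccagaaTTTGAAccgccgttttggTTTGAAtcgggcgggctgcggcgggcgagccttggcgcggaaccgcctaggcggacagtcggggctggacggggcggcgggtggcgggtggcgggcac
Top2a (chr11:99024190-99024339, minus strand): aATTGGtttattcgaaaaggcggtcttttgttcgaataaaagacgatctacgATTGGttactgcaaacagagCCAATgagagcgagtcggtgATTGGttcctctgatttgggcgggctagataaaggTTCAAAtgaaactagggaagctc
Kif11 (chr19:37376232-37376381, plus strand): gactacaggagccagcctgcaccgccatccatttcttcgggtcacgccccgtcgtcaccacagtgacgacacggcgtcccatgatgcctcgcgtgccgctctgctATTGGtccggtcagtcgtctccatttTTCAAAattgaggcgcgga

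**Figure D1:**
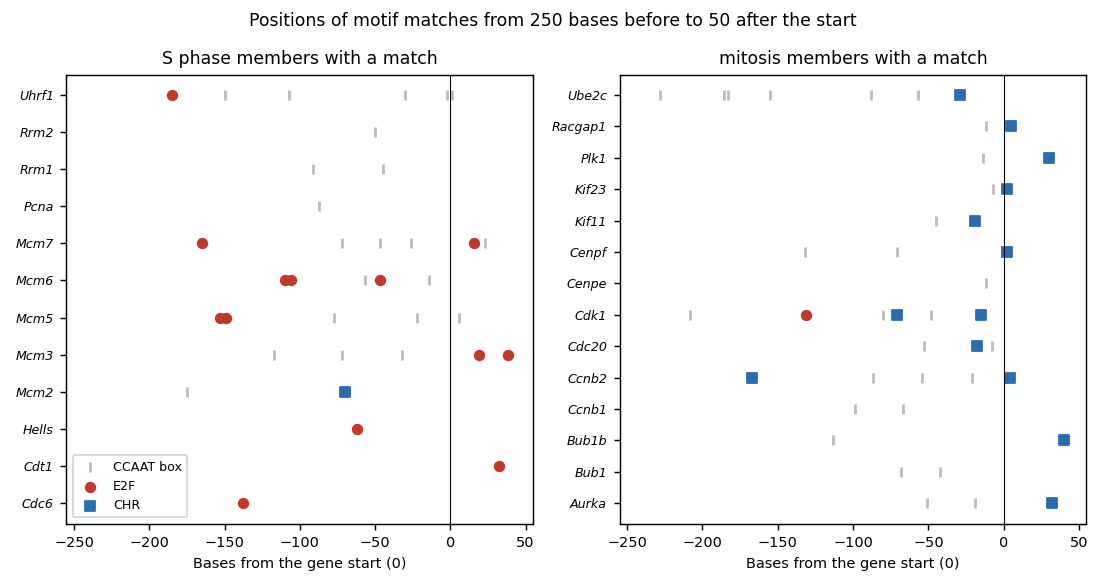
Positions of E2F (red circles), CHR (blue squares) and CCAAT (grey bars) matches in the promoter windows of S phase members (left) and mitosis members (right); the x axis gives bases from the start of the gene, and members without a match are not drawn. E2F matches are present in 8 of 16 S phase windows and in 1 of 16 mitosis windows, and CHR matches in 1 of 16 and 11 of 16.

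Libraries held 36676963 to 58662617 estimated counts. The tissue label was checked against marker genes, and enterocyte, Paneth cell and crypt stem cell markers were detected in every mouse. Of the markers of the distal ileum, the bile acid genes Fabp6 and Slc10a2 were low without ABX, at 0.238 to 3.91 CPM and 1.38 to 8.80 CPM over the SPF mice, and higher with ABX, at 2.65 to 144 CPM and 13.2 to 86.0 CPM. CD mouse 2 stood apart, with a summed enterocyte marker level of 18980 CPM against 40070 CPM in the highest CD mouse. Between single mice, the members moved largely as a block. The summed level of the 40 members was 1337, 1546, 1395, 1227 and 1646 CPM in CD mice 1 to 5 and 872, 1238, 1192, 1355 and 1287 CPM in TDD mice. With ABX it was 1658, 1451, 1501, 1487 and 1021 CPM in CD+ABX mice and 1794, 1412, 1683, 1253 and 1291 CPM in TDD+ABX mice. All 4 groups overlapped in this sum. TDD mouse 1 held the lowest level of its group for 36 of the 40 members, CD+ABX mouse 5 for 39 and CD mouse 4 for 30, while TDD+ABX mouse 1 held the highest for 36.

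The same 2 mice, TDD mouse 1 and CD+ABX mouse 5, also had the lowest summed level of 8 crypt stem cell markers (493 CPM where the TDD mice reached 782 CPM, and 395 CPM where the CD+ABX mice reached 849 CPM) and the highest summed level of 10 enterocyte markers (40300 and 44240 CPM) in their groups. In the other groups these ranks fell on different mice. CD mouse 4 and TDD+ABX mouse 4 had the lowest summed members. CD mouse 3 and TDD+ABX mouse 5 had the lowest crypt and highest enterocyte sums. How much of each piece of tissue was crypt was not measured, and its part in the results below was not tested. Each main count is therefore also given without TDD mouse 1 and CD+ABX mouse 5. They were chosen for their low levels, so leaving them out raises the TDD and CD+ABX means of most members.

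**Figure D2:**
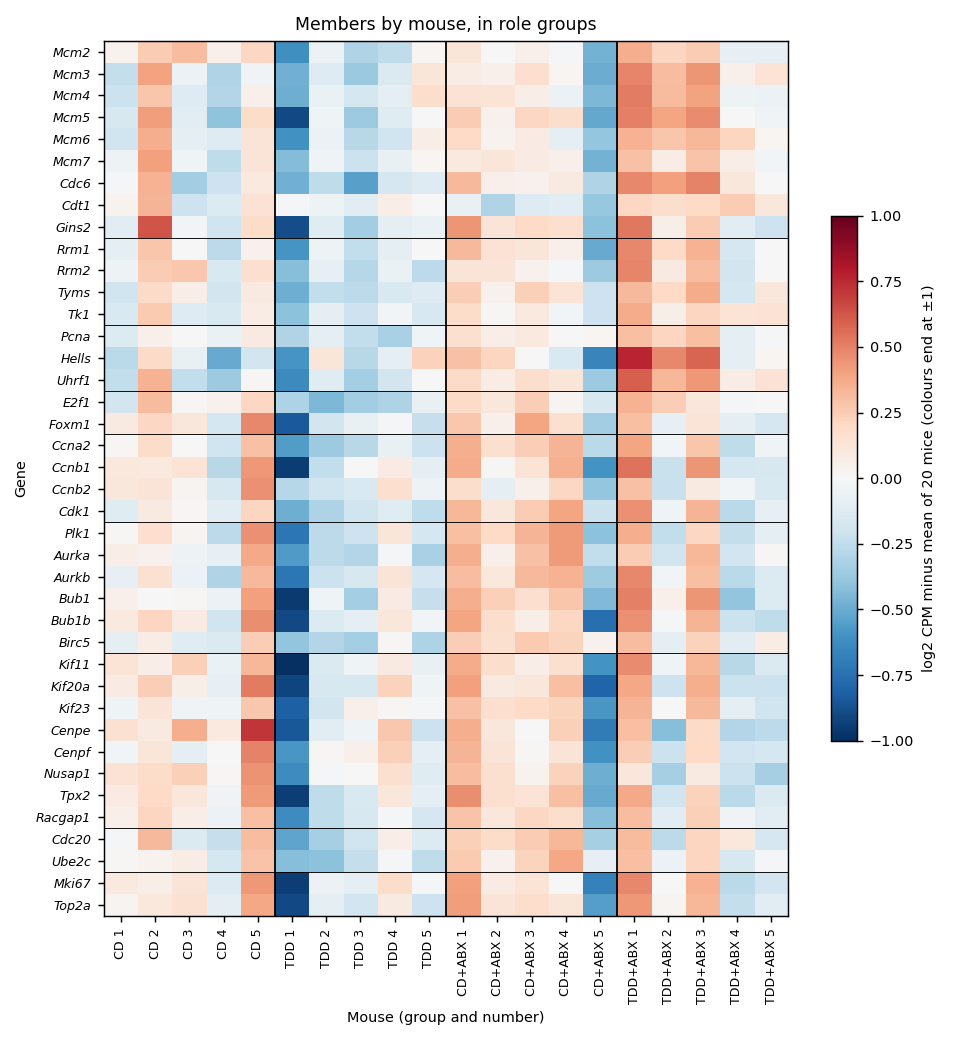
Level of each of the 40 members in each of the 20 mice, as log2 CPM minus the mean of that member over all mice (colour, red higher and blue lower), with rows in role groups and columns by diet and ABX. TDD mouse 1 and CD+ABX mouse 5 form blue columns, in which 36 and 39 of the 40 members take the lowest level of their group.

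To compare levels between genes, TPM values, which are scaled by transcript length as well as by library size, were used. In CD mice, Pcna, the clamp that holds DNA polymerase on its template, had the highest level of the members at 100.6 ± 10.3 TPM (SD, n = 5), followed by Top2a at 58.7 ± 7.54 TPM and Ube2c at 53.3 ± 6.12 TPM. The last 2 differed by less than their SDs. The lowest were Cdc6, at 3.67 ± 0.945 TPM, and E2f1, at 3.15 ± 0.456 TPM, which also lay within each other's spread. For Kif11, a spindle motor, the gene count was 2 times the sum of its transcripts in every mouse, so that its CPM level is doubled while its fold changes are not affected. Within a group, the members varied moderately between mice. The coefficient of variation of an S phase member was 3.40 to 25.1%, and that of a mitosis member 5.98 to 27.5%.

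First, TDD was compared with CD in SPF mice. No member met the rule of the study methods (q under 0.05 and a change of at least 2-fold), which 1.84% of all 16306 genes tested met. The members nevertheless lay mostly on the lower side, since 39 of 40 had a log2 fold change below 0, as 47.3% of all genes tested did. At any fold, 2 of 40 members passed q under 0.05 (edgeR), or 5%, where 14.4% of all genes tested did. Both of them, Mcm2 and E2f1, fell, as 7.73% of all genes tested did. At an unadjusted p under 0.05, 15 members were lower and none was higher (37.5%), where 28.5% of all genes tested differed and 14.4% were lower. The median log2 fold change was -0.30 over all members, -0.19 over S phase members and -0.32 over mitosis members, against 0.01 over all genes tested. The share of members that passed was thus below the background, and most members had small differences of the same sign, in genes that vary together from mouse to mouse. Leaving out TDD mouse 1 brought the median of all members to -0.20, and leaving out CD mouse 2 brought that of the S phase members to -0.13. Without both mice of lowest member level and CD mouse 2, the S phase median was -0.05, with 4 of 16 above 0. Without both mice of lowest member level, 3 members fell with q under 0.05 (E2f1, Mcm2 and Racgap1), where 16.3% of all genes tested passed.

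Mcm2, a subunit of the replicative helicase (chr6:88883474-88898780, minus strand), stood at 35.5, 41.3, 42.9, 35.9 and 40.1 CPM in CD mice 1 to 5, 22.6, 33.3, 28.1, 29.1 and 35.2 in TDD mice, 37.8, 34.6, 35.9, 34.4 and 24.96 in CD+ABX mice and 44.5, 40.3, 41.3, 32.8 and 32.7 in TDD+ABX mice. All 5 TDD mice were below all 5 CD mice, by a narrow margin at TDD mouse 5 (35.2 CPM) and CD mouse 1 (35.5 CPM), and Mcm2 fell with TDD (log2 fold change -0.40, SE 0.12, q = 0.0337, edgeR). It passed in 15 of 20 fits that left out 1 mouse, with q of up to 0.0798. The fits in which it did not pass lacked CD mouse 3, CD mouse 5, TDD mouse 1, TDD mouse 3 and TDD mouse 4. Without TDD mouse 1 its log2 fold change was -0.32. E2f1, a transcription factor that switches on S phase genes (chr2:154559407-154569892, minus strand), stood at 5.29, 7.49, 6.08, 6.19 and 6.94 CPM in CD mice 1 to 5, 4.87, 4.399, 4.72, 4.87 and 5.71 in TDD mice, 6.86, 6.50, 7.14, 6.13 and 5.39 in CD+ABX mice and 7.64, 7.14, 6.51, 5.93 and 6.03 in TDD+ABX mice. TDD mouse 5 overlapped CD mouse 1, the other 4 TDD mice were below every CD mouse, and E2f1 fell with TDD (log2 fold change -0.38, SE 0.11, q = 0.023, edgeR). It did not pass without CD mouse 5 or TDD mouse 2 (q of up to 0.0591), nor in a fit of the CD and TDD mice alone (q = 0.0646). Ube2c, which hands ubiquitin to the complex that ends mitosis (chr2:164769898-164778822, plus strand), stood at 32.7, 33.3, 34.04, 28.8 and 39.5 CPM in CD mice 1 to 5, 24.1, 24.4, 27.4, 32.03 and 27.2 in TDD mice, 38.8, 33.3, 37.9, 42.4 and 30.6 in CD+ABX mice and 39.99, 31.1, 37.7, 29.05 and 31.9 in TDD+ABX mice. All 4 groups overlapped, and the difference on TDD in SPF mice missed the threshold (log2 fold change -0.32, SE 0.11, q = 0.0546, edgeR).

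Cenpe, a kinetochore motor (chr3:135212537-135273611, plus strand), had the lowest log2 fold change of the members and stood at 22.997, 21.9, 26.5, 22.1 and 33.9 CPM in CD mice 1 to 5, 11.4, 19.1, 20.02, 24.8 and 17.8 in TDD mice, 26.6, 22.3, 20.6, 24.4 and 12.7 in CD+ABX mice and 25.4, 15.3, 23.6, 16.9 and 17.3 in TDD+ABX mice. TDD mouse 1 was the lowest of its group, TDD mouse 4 was inside the CD range, and the difference missed the threshold (log2 fold change -0.45, SE 0.20, q = 0.152, edgeR). Hells, a chromatin remodeller of replicating cells (chr19:38930915-38971051, plus strand), was the only member above 0 in this comparison and stood at 17.6, 24.2, 20.1, 14.9 and 18.6 CPM in CD mice 1 to 5, 14.1, 22.98, 17.5, 19.8 and 24.8 in TDD mice, 25.8, 24.5, 21.2, 18.99 and 13.4 in CD+ABX mice and 35.9, 29.5, 31.7, 19.8 and 21.4 in TDD+ABX mice. The CD and TDD mice overlapped broadly (log2 fold change 0.06, SE 0.19, q = 0.88, edgeR), and the sign turned in 3 of 20 fits that left out 1 mouse. One further member, Cdk1, the kinase that drives entry into mitosis, had no overlap between CD mice (26.6, 30.7, 29.1, 26.9 and 33.6 CPM) and TDD mice (20.6, 23.3, 25.2, 26.6 and 24.2 CPM), by less than the rounding of these values, and did not pass the test (log2 fold change -0.29, SE 0.13, q = 0.141, edgeR). Cdk1 was named after its values were seen. Members whose TDD mice were all lower thus numbered 2 of 40, or Mcm2 and Cdk1, a pattern found for 4.9% of all genes tested.

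The general markers did not pass the test in any comparison. Mki67, the gene of the Ki-67 antigen (chr7:135689784-135716361, minus strand), stood at 170.1, 165.6, 173.6, 144.6 and 214.4 CPM in CD mice 1 to 5, 82.7, 152.2, 149.5, 180.7 and 157.5 in TDD mice, 210.9, 167.7, 174.8, 159.4 and 99.7 in CD+ABX mice and 221.4, 159.5, 202.2, 132.1 and 139.5 in TDD+ABX mice. Top2a, a topoisomerase that untangles replicated DNA (chr11:98992943-99024189, minus strand), stood at 119.7, 126.5, 130.7, 110.3 and 153.5 CPM in CD mice 1 to 5, 62.8, 110.6, 103.1, 125.3 and 101.9 in TDD mice, 157.2, 128.7, 132.9, 127.7 and 80.4 in CD+ABX mice and 159.1, 119.9, 147.9, 100.03 and 109.1 in TDD+ABX mice. For both genes TDD mouse 1 and CD+ABX mouse 5 were the lowest of their groups and all 4 groups overlapped. With TDD in SPF mice, the difference was -0.27 for Mki67 on the log2 scale (95% interval -0.69 to 0.15, q = 0.417, edgeR) and -0.35 for Top2a (95% interval -0.72 to 0.03, q = 0.211). Both intervals include 0.

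**Figure D3:**
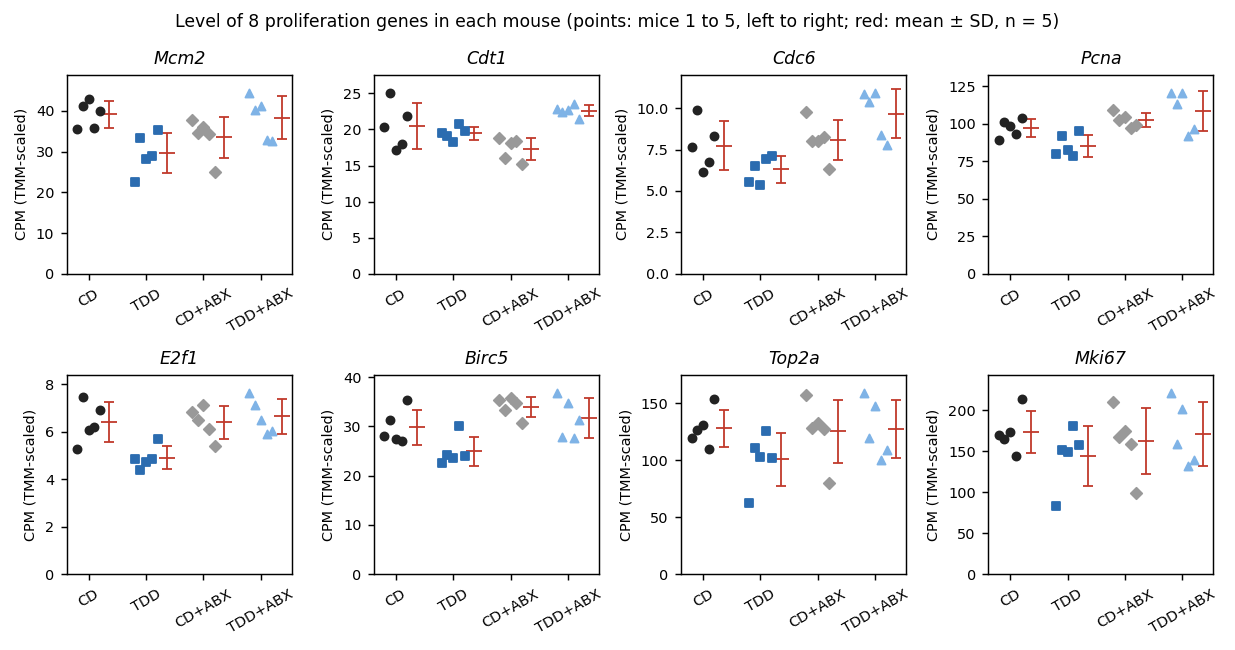
CPM of 8 members in each mouse of the 4 groups (points, mice 1 to 5 from left to right), with mean ± SD in red (n = 5). Mcm2 does not overlap between CD and TDD, Cdt1 does not overlap between CD+ABX and TDD+ABX, and Mki67 and Top2a overlap in all groups, with TDD mouse 1 and CD+ABX mouse 5 lowest.

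Next, TDD was compared with CD in ABX-treated mice. One of 40 members rose with q under 0.05 (edgeR), Cdt1, or 2.5%, where 1.76% of all genes tested passed and 0.681% rose, and none met the 2-fold rule, which 0.331% of all genes met. Of 16 S phase members, 15 had a log2 fold change above 0 (median 0.21), and of 20 mitosis members, 3 did (median -0.08), where 49.2% of all genes tested lay above 0. At an unadjusted p under 0.05, 3 S phase members were higher and no mitosis member differed (7.5% of the members), where 14.8% of all genes tested differed and 7.21% were higher. In fits without 1 mouse, the S phase median stayed above 0 (0.12 without CD+ABX mouse 5 to 0.27 without TDD+ABX mouse 5), while the mitosis median ranged from -0.17 without CD+ABX mouse 5, with 0 of 20 mitosis members above 0, to -0.001 without TDD+ABX mouse 4, with 10 of 20 above 0. Over all members the median was 0.02, and it turned to -0.10 without CD+ABX mouse 5, -0.08 without TDD+ABX mouse 1 and -0.04 without TDD+ABX mouse 3, so that no side can be given for the members as a whole. Without both mice of lowest member level, no member passed q under 0.05, where 1.99% of all genes tested did.

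Cdt1, which loads the MCM helicase (chr8:122568015-122573554, plus strand), stood at 20.3, 25.1, 17.1, 18.001 and 21.8 CPM in CD mice 1 to 5, 19.5, 19.1, 18.3, 20.7 and 19.8 in TDD mice, 18.8, 16.04, 18.1, 18.3 and 15.3 in CD+ABX mice and 22.9, 22.4, 22.7, 23.6 and 21.5 in TDD+ABX mice. Every TDD+ABX mouse was above every CD+ABX mouse, and Cdt1 rose (log2 fold change 0.39, SE 0.08, q = 0.0255, edgeR). It did not pass (q of up to 0.0546) in the fits that lacked CD+ABX mouse 2, CD+ABX mouse 5, TDD+ABX mouse 1, TDD+ABX mouse 3 and TDD+ABX mouse 4, nor without both mice of lowest member level (log2 fold change 0.34, q = 0.0504) or with upper-quartile scaling (q = 0.0514). A complete separation upward was found for Cdt1 as the 1 of 40 members and for 2.35% of all genes tested. Mcm3, a further helicase subunit (chr1:20802968-20820312, minus strand), stood at 21.4, 33.3, 24.1, 20.4 and 24.6 CPM in CD mice 1 to 5, 18.1, 22.96, 19.4, 22.8 and 27.3 in TDD mice, 26.5, 26.1, 28.3, 25.6 and 17.8 in CD+ABX mice and 35.3, 31.2, 34.1, 26.1 and 27.6 in TDD+ABX mice. CD+ABX mouse 5 was the lowest of its group and the groups overlapped (log2 fold change 0.31, SE 0.14, q = 0.31, edgeR). Hells had the highest log2 fold change of the members, 0.41 (q = 0.325, edgeR), with TDD+ABX mice 4 and 5 inside the CD+ABX range.

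At the other end, Nusap1, which bundles spindle microtubules (chr2:119618298-119651244, plus strand), stood at 30.8, 31.7, 32.9, 28.1 and 38.2 CPM in CD mice 1 to 5, 18.1, 27.6, 28.01, 31.3 and 25.6 in TDD mice, 34.5, 31.2, 28.6, 32.8 and 19.9 in CD+ABX mice and 30.2, 22.2, 29.6, 24.01 and 22.2 in TDD+ABX mice. All 4 groups overlapped, and its log2 fold change of -0.20 was the lowest in ABX-treated mice (q = 0.575, edgeR). Mcm2 (0.19, q = 0.488), Pcna (0.08, q = 0.674), Mki67 (0.07, q = 0.904) and Top2a (0.02, q = 0.97) did not pass the test. The last 2 turned to -0.06 and -0.10 without both mice of lowest member level.

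The balance of the phases was also read in single mice, as the ratio of the summed CPM of 16 S phase members to that of 20 mitosis members. It averaged 0.961 ± 0.104 (SD, n = 5) in CD mice, 1.05 ± 0.13 in TDD mice, 0.960 ± 0.0843 in CD+ABX mice and 1.15 ± 0.10 in TDD+ABX mice. TDD+ABX mice ranged from 1.06 to 1.32 and CD+ABX mice from 0.847 to 1.08, so that these groups overlapped slightly, and SPF groups overlapped over most of their ranges (0.839 to 1.12 in CD and 0.876 to 1.15 in TDD). The overlap of the ABX groups came from CD+ABX mouse 5 alone, at 1.078, and the next CD+ABX mouse stood at 0.98. TDD mouse 1, at 1.153, likewise held the highest ratio of its group. The mitosis sum holds the doubled level of Kif11. With that level halved, the ratio averaged 0.994 in CD, 1.08 in TDD, 0.991 in CD+ABX and 1.19 in TDD+ABX mice, and CD+ABX (0.873 to 1.11) and TDD+ABX mice (1.102 to 1.36) still overlapped slightly.

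**Figure D4:**
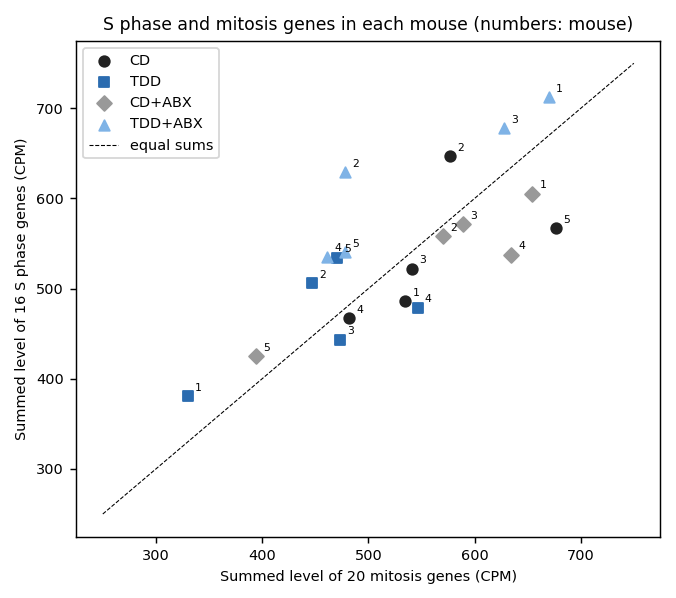
Summed CPM of the 16 S phase members (y axis) against that of the 20 mitosis members (x axis) in each mouse, with symbols by group, mouse numbers beside the points and a dashed line of equal sums. All 5 TDD+ABX mice lie above the line, with ratios of 1.06 to 1.32 (1.102 to 1.36 with the doubled level of Kif11 halved), and both mice of lowest member level lie at the lower left. TDD mice 1, 2 and 5, CD mouse 2 and CD+ABX mouse 5 also lie above the line. The line compares sums of unequal numbers of genes and is only a guide to the eye.

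The effect of ABX was then examined on each diet. On CD, no member passed q under 0.05 (edgeR), where 12.8% of all genes tested did, and none met the 2-fold rule, which 2.3% of all genes met. At an unadjusted p under 0.05, 1 of 40 members differed (2.5%, against 26.7% of all genes tested). DESeq2 also gave 0 members with q under 0.05, as did edgeR without both mice of lowest member level. There, 16.1% and 11.5% of all genes tested passed. The median log2 fold change was 0.005 (-0.05 to 0.105 in fits without 1 mouse), and members ranged from -0.26 to 0.19. Cdt1 was the member with the lowest p (log2 fold change -0.24, SE 0.08, q = 0.0659, edgeR), with CD mice 3 and 4 inside the CD+ABX range, and it passed q under 0.05 when either of these mice was left out. Birc5, which encodes survivin of the chromosomal passenger complex (chr11:117849251-117855743, plus strand), stood at 28.01, 31.4, 27.4, 27.01 and 35.4 CPM in CD mice 1 to 5, 22.7, 24.3, 23.6, 30.1 and 24.04 in TDD mice, 35.3, 33.3, 35.8, 34.8 and 30.7 in CD+ABX mice and 36.8, 27.9, 34.9, 27.7 and 31.4 in TDD+ABX mice. CD mice 2 and 5 lay within the CD+ABX range and the difference missed the threshold (log2 fold change 0.19, SE 0.09, q = 0.211, edgeR), as it did for Mcm2 (log2 fold change -0.22, SE 0.12, q = 0.255).

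On TDD, more members passed the test than in any other comparison. With ABX, 12 of 40 members rose with q under 0.05 (30%; edgeR), and none fell, where 15.5% of all genes tested passed and 7.19% rose. At an unadjusted p under 0.05, 23 of 40 members were higher and none was lower (57.5%), among them all 16 S phase members and 6 of 20 mitosis members, where 30.6% of all genes tested differed and 13.9% were higher. None met the 2-fold rule, which 1.67% of all genes met. The 12 members with q under 0.05 comprised 9 of 16 S phase members (Mcm2, Mcm3, Mcm6, Cdc6, Rrm2, Tyms, Tk1, Pcna and Uhrf1), 2 of 20 mitosis members (Birc5 and Ube2c) and E2f1. In all, 39 of 40 members had a log2 fold change above 0, as 45.5% of all genes tested did, with a median of 0.34 (S phase 0.39, mitosis 0.28, all genes tested -0.03). The mitosis median was 0.165 without TDD mouse 1. This comparison and that of the diets in SPF mice share the same 5 TDD mice, so that a low TDD mouse enters both. Without both mice of lowest member level, 11 members rose with q under 0.05, where 17.3% of all genes tested passed. Without TDD+ABX mouse 1, which held the highest level of most members, 6 members rose, where 8.6% of all genes tested passed. Without TDD mouse 1 the number was 7, where 15.1% passed. It was also 7 without TDD+ABX mouse 2 or TDD+ABX mouse 3, where 9.61% and 9.33% passed. In the fit that lacked TDD+ABX mouse 4 it was 18, where 16% passed. Fewer of all genes thus passed without TDD+ABX mouse 1, 2 or 3, while without TDD mouse 1 their share stayed near 15.5%.

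Among the licensing genes, Cdc6, which loads the helicase together with Cdt1 (chr11:98907801-98923940, plus strand), stood at 7.66, 9.88, 6.12, 6.72 and 8.33 CPM in CD mice 1 to 5, 5.57, 6.53, 5.34, 6.93 and 7.10 in TDD mice, 9.74, 8.03, 8.003, 8.25 and 6.30 in CD+ABX mice and 10.8, 10.3, 10.9, 8.40 and 7.78 in TDD+ABX mice. Every TDD+ABX mouse was above every TDD mouse and Cdc6 rose (log2 fold change 0.62, SE 0.14, q = 0.00795, edgeR), the highest log2 fold change of the members here. Mcm2, Mcm3 and Mcm6 rose by 0.37, 0.48 and 0.44 on the log2 scale (q = 0.0464, 0.0298 and 0.026, edgeR). Cdt1 was higher in every TDD+ABX mouse than in any TDD mouse but missed the threshold (log2 fold change 0.21, SE 0.08, q = 0.0869).

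Of the genes for nucleotide supply, Tyms, which makes thymidylate, rose by 0.43 (q = 0.0142, edgeR), Tk1, which salvages thymidine, by 0.36 (q = 0.0134) and Rrm2, a subunit of ribonucleotide reductase, by 0.38 (q = 0.0403), all on the log2 scale. Rrm1, the large subunit of that enzyme, stood at 0.37 and missed the threshold (q = 0.0965). Pcna (chr2:132249162-132253314, minus strand) stood at 89.1, 101.1, 98.2, 93.2 and 103.9 CPM in CD mice 1 to 5, 79.4, 91.4, 82.5, 78.1 and 94.8 in TDD mice, 109.3, 102.5, 104.6, 97.3 and 99.2 in CD+ABX mice and 120.6, 113.2, 120.2, 91.95 and 96.7 in TDD+ABX mice. TDD+ABX mouse 4 lay inside the TDD range, the other 4 TDD+ABX mice were above all TDD mice, and Pcna rose with the lowest p of the members (log2 fold change 0.35, SE 0.08, q = 0.00689, edgeR). Uhrf1, which copies DNA methylation marks, rose by 0.57 on the log2 scale (q = 0.0136), and E2f1 by 0.44 (q = 0.0121, edgeR). Cdc6, Cdt1, Tk1, Uhrf1 and E2f1 were the members without overlap between TDD and TDD+ABX mice, or 5 of 40 in the upward direction, where 5.97% of all genes tested showed this.

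Of the mitosis members, Birc5 rose by 0.35 on the log2 scale (q = 0.019, edgeR) and Ube2c by 0.33 (q = 0.0442). Among cyclins and CDK1, none of 4 members passed the test (log2 fold changes 0.10 to 0.38), and of the 8 spindle, kinetochore and cytokinesis members none did (-0.03 to 0.30), with Nusap1 as the only member of the 40 below 0. Cdc6, Tyms, Tk1, Pcna, Uhrf1 and E2f1 passed in all 20 fits that left out 1 mouse, Birc5 in 19, Mcm6 in 16, Mcm3 and Rrm2 in 14, and Mcm2 and Ube2c in 11. Birc5 was lost without TDD+ABX mouse 1 (q = 0.0523). Without TDD mouse 1, or without TDD+ABX mouse 1, 2 or 3, each of Mcm2, Mcm3, Mcm6, Rrm2 and Ube2c was lost, and the highest q was 0.0576 for Mcm6, 0.0728 for Mcm3, 0.111 for Mcm2, 0.112 for Rrm2 and 0.113 for Ube2c. The other losses were without TDD mouse 2 (Ube2c), 3 (Mcm2, Mcm3, Rrm2 and Ube2c), 4 (Mcm2 and Mcm3) or 5 (Rrm2 and Ube2c) and without CD mouse 1 or 3 (Mcm2 and Ube2c) or 4 (Mcm2).

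**Figure D5:**
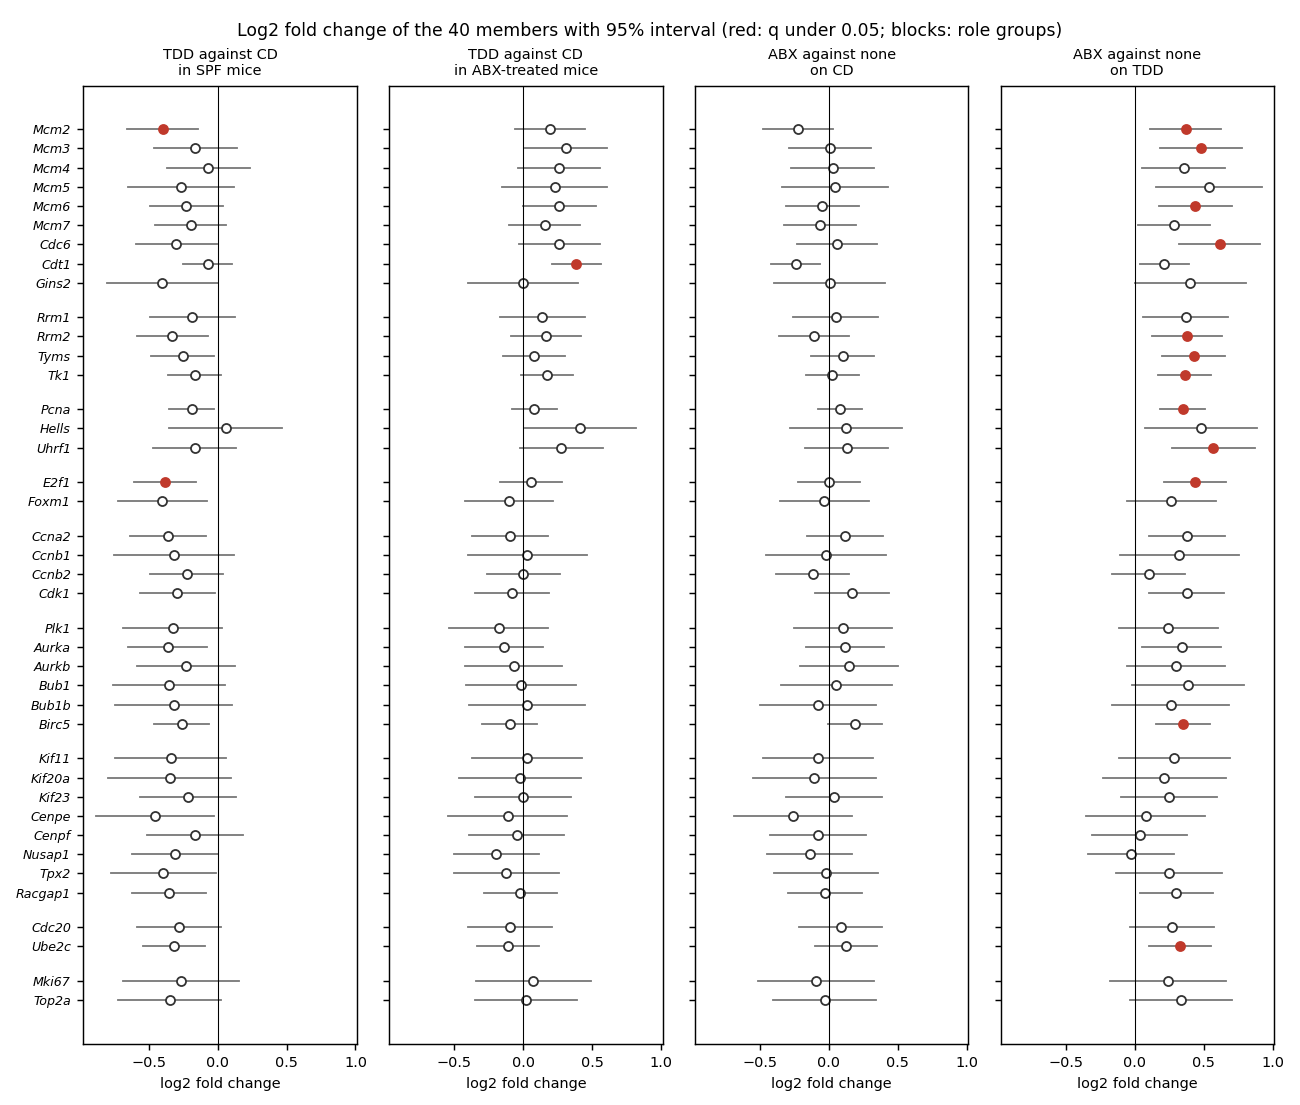
Log2 fold change (x axis) with 95% interval for each of the 40 members, in blocks by role, in the 4 comparisons of groups of 5 mice; red points have q under 0.05. Red points number 2 in the diet comparison of SPF mice (both below 0), 1 in that of ABX-treated mice, 0 for ABX on CD and 12 for ABX on TDD (all above 0).

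Whether the diet effect itself differed between SPF and ABX-treated mice was tested as the interaction of diet and ABX. No member passed q under 0.05 (edgeR), where 6 of 16306 genes tested did (0.0368%). All 40 members had an interaction above 0, as 48.4% of all genes tested did, with a median of 0.33 (S phase 0.42, mitosis 0.22). The median of the members was 0.21 without TDD mouse 1 and 0.215 without CD+ABX mouse 5, where the mitosis median was 0.14. Without both of these mice, 35 of 40 members were above 0, at medians of 0.12 over all, 0.25 over S phase and 0.075 over mitosis members. These mice were chosen for their low levels, and TDD and CD+ABX enter the interaction with a minus sign. Leaving them out lowers the interaction by design, while CD mouse 4 and TDD+ABX mouse 4, lowest in summed level in the other groups, were kept. At an unadjusted p under 0.05, 11 of 40 members were higher and none was lower (27.5%), 10 of them S phase members and the last E2f1, where 8.9% of all genes tested passed that limit and 4.29% were higher. The lowest p belonged to Cdt1 (log2 fold change 0.46, SE 0.12, q = 0.162), Mcm2 (log2 fold change 0.59, SE 0.17, q = 0.228) and E2f1 (log2 fold change 0.44, SE 0.15, q = 0.336). With DESeq2, 1 member passed, Cdt1 (log2 fold change 0.47, q = 0.0262), where 0.84% of all genes tested passed. No member passed without both mice of lowest member level, where 0.0246% of all genes tested did. With CD mouse 2 left out as well, the median of the members was 0.11. A difference between the diet effects was thus not shown for any member by edgeR.

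Other genes of the cell cycle were read from lists drawn up with earlier results of these data known. Of 35 other S phase genes, 1 fell with TDD in SPF mice, where 7.73% of all genes tested fell. This was Ccne2, a cyclin of S phase entry (log2 fold change -0.44, SE 0.14, q = 0.0426, edgeR). Lig1, the replicative DNA ligase (-0.22, q = 0.109), and Prim1, a subunit of primase (-0.31, q = 0.119), came next and did not pass. The median of the list was -0.12, and 30 of 35 genes lay below 0. Of 35 other mitosis genes, 3 fell, where 7.73% of all genes tested did, namely Spc25 (log2 fold change -0.56, SE 0.10, q = 0.00139) and Ndc80 (log2 fold change -0.55, SE 0.16, q = 0.0261), both of the kinetochore complex that grips microtubules, and Cdc25c (log2 fold change -0.55, SE 0.18, q = 0.0477), a phosphatase that activates CDK1. Here the median was -0.33, and 33 of 35 genes lay below 0.

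In ABX-treated mice, no gene of either list passed the diet test, at medians of 0.07 and -0.04. Low p values belonged to Rfc3 (0.22, q = 0.157) and Cdc25a (-0.15, q = 0.359) of S phase and to Pttg1 (-0.18, q = 0.232), Spc25 (-0.20, q = 0.358) and Ccnf (-0.29, q = 0.417) of mitosis (edgeR). With ABX, 6 other S phase genes and 4 other mitosis genes of 35 each rose on TDD (medians 0.26 and 0.24), where 7.19% of all genes tested rose. On CD 2 other S phase genes and no other mitosis gene rose, where 5.35% of all genes tested did.

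Of 7 G1 cyclin and growth signal genes, 3 changed with TDD in SPF mice, in both directions, where 14.4% of all genes tested did. All 3 encode D-type cyclins, which carry growth signals to the cell cycle. Ccnd2 rose (log2 fold change 0.63, SE 0.12, q = 0.00179, edgeR), while Ccnd1 (log2 fold change -0.45, SE 0.15, q = 0.046) and Ccnd3 (log2 fold change -0.27, SE 0.06, q = 0.00622) fell. In ABX-treated mice none passed, with Ccnd2 at 0.45 (q = 0.0583), Ccnd3 at -0.18 (q = 0.153) and Cdk4 at 0.15 (q = 0.427). Of 14 cell cycle inhibitors 13 were tested, Cdkn2a being below the filter. Among these, 2 passed q under 0.05 with TDD in SPF mice, where 14.4% of all genes tested did. With TDD in SPF mice, Cdkn2b, an inhibitor of CDK4 and CDK6, fell (log2 fold change -0.34, SE 0.08, q = 0.00888, edgeR) and Cdkn1b, which encodes p27, rose (log2 fold change 0.18, SE 0.06, q = 0.0489), while Ccng2 did not pass (log2 fold change 0.45, SE 0.21, q = 0.158). In ABX-treated mice Cdkn2b (-0.20, q = 0.232), Rb1 (0.27, q = 0.232) and Cdkn1b (0.14, q = 0.247) had the lowest p and did not pass.

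Markers of cells that could hold dividing cells were set beside these results. Of 8 crypt stem cell markers, none passed the test in any of the 4 comparisons, and their summed level was 658 to 974 CPM in CD, 493 to 782 CPM in TDD, 395 to 849 CPM in CD+ABX and 549 to 838 CPM in TDD+ABX mice. Of 8 germinal centre B cell markers, whose summed levels were 40.4 to 53.3, 36.3 to 44.6, 46.0 to 52.8 and 36.6 to 53.7 CPM in the same order, none passed with TDD in SPF mice, while 2 were higher and 1 lower with ABX on TDD. On CD, 2 of them were higher and 4 lower with ABX. In ABX-treated mice, 1 of them was lower with TDD (q = 0.0165, edgeR) and none was higher, where 1.08% of all genes tested were lower. Of 8 B cell markers none passed in any of the 4 comparisons. Their summed levels were 8.62 to 133 CPM in CD, 7.18 to 205 CPM in TDD, 5.22 to 11.9 CPM in CD+ABX and 6.07 to 143 CPM in TDD+ABX mice. At an unadjusted p under 0.05 (edgeR), all 8 were lower with ABX on CD (lowest q = 0.0687), where 14.6% of all genes tested were. At the same limit, 6 were higher with TDD in ABX-treated mice (lowest q = 0.215), where 7.21% of all genes tested were. Of 7 T cell markers, 4 were lower with ABX on TDD and none was higher (32.5 to 54.8 CPM in TDD and 20.5 to 38.7 CPM in TDD+ABX mice). With ABX on CD, 6 of 7 were lower and none was higher. Of all genes tested, 8.3% were lower with ABX on TDD and 7.43% on CD, while 7.19% and 5.35% were higher. The part of these cells in the levels of the members was not tested.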

How the data were processed

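RNA sequencing of the terminal ileum was analysed for 20 mice in 4 groups of 5, assigned by the labelled diet and ABX treatment. Per the labels, the authors quantified reads with kallisto 0.44.0 on GRCm38, and they deposited estimated counts per gene and transcript-level TPM, which were summed here per gene. Estimated counts, already whole numbers, were tested with edgeR 4.0.16 (R 4.3.3) by the quasi-likelihood test with TMM scaling, all 4 groups in 1 fit. Genes with 0.5 CPM in at least 1 mouse were kept (16306), and q values are Benjamini-Hochberg adjusted over all of them. Intervals are 95% intervals of the fit. CPM are TMM-scaled. Alternatives were RLE and upper-quartile scaling, no filter and 0.5 CPM in at least 5 mice, DESeq2 1.42.0, limma-voom (limma 3.58.1), a replicate block, a fit of only the groups compared, and fits without single mice. Totals were 36676963 to 58662617 counts per library. No libraries were near-identical. Labels do not say that cages were separate, so p-values cover only the spread between these mice.

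Members, role groups and lists were chosen with earlier results of these data known. Values in every mouse are given for Mki67, Top2a, Pcna and Mcm2, for the 3 members of lowest p in each comparison and the interaction, and for the largest fold in each direction in each diet comparison, and pathway genes are named as the 3 of lowest p per diet comparison, except where a gene is not reported here. Gene positions come from GENCODE M21 (GRCm38) and promoters from RefSeq (GRCm38.p6).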

Additional observations from a re-analysis of the deposited data

Results flagged for a closer look

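Of 160 checks of a member in a group of 5 mice, 11 found 1 mouse far from the other 4, where chance gives about 1 in 20, or 8 checks. In CD+ABX mouse 5, the level was far below the rest of its group for Mcm2 (25.0 CPM, next 34.4 CPM), Mcm3 (17.8 CPM, next 25.6 CPM), Mcm7 (32.1 CPM, next 46.0 CPM), Uhrf1 (30.3 CPM, next 41.1 CPM), Bub1 (7.94 CPM, next 12.2 CPM), Kif23 (24.9 CPM, next 42.0 CPM) and Cdc20 (19.2 CPM, next 27.6 CPM). TDD mouse 1 was far below its group for Kif11 (16.5 CPM, next 30.6 CPM, both from the doubled count). On the high side stood Aurka (19.7 CPM, next 15.8 CPM) and Bub1 (14.3 CPM, next 11.2 CPM) in CD mouse 5 and Birc5 in TDD mouse 4 (30.1 CPM, next 24.3 CPM). These checks are not independent, since the members vary together from mouse to mouse.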

How the results depend on the processing

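No member passed the 2-fold rule in any of the 4 comparisons under any alternative. The counts of members with q under 0.05 (2, 1, 0 and 12 for the diet in SPF mice, the diet in ABX-treated mice, ABX on CD and ABX on TDD, and 0 for the interaction) moved by over 1.5 times as follows. DESeq2 gave 5 for the diet in SPF mice (Ccna2, E2f1, Mcm2, Racgap1 and Ube2c), 19 for ABX on TDD and 1 for the interaction. Of all genes tested, 17%, 19.9% and 0.84% passed with DESeq2 in the same order. A fit of only the groups compared gave 1 for the diet in SPF mice, where 8.71% of all genes tested passed. Upper-quartile scaling gave 0 for the diet in ABX-treated mice, where 1.92% passed. In fits without 1 mouse, the counts ranged from 0 (without CD mouse 5) to 5 (without CD+ABX mouse 5 or without TDD+ABX mouse 1) for the diet in SPF mice, 0 to 1 for the diet in ABX-treated mice, 0 to 1 for ABX on CD (Cdt1, without CD mouse 3 or CD mouse 4), 6 to 18 for ABX on TDD and 0 to 0 for the interaction. For the diet in SPF mice, 9.86% of all genes tested passed without CD mouse 5, 15.6% without CD+ABX mouse 5 and 13.8% without TDD+ABX mouse 1. For ABX on CD, 8.87% passed without CD mouse 3 and 10.7% without CD mouse 4. The q of Mcm2 for the diet in SPF mice ranged from 0.0160 to 0.0798 in the fits without 1 mouse, that of E2f1 from 0.0126 to 0.0591 and that of Cdt1 for the diet in ABX-treated mice from 0.00529 to 0.0546. Hells ranged from -0.037 to 0.158 for the diet in SPF mice, and Mki67 from -0.060 to 0.184 and Top2a from -0.103 to 0.115 for the diet in ABX-treated mice, each turning in sign.

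The following alternatives, and the halved Kif11 level, were chosen after seeing the data. Without TDD mouse 1 and CD+ABX mouse 5, 0 members passed for the diet in ABX-treated mice, where 1.99% of all genes tested did. There, Mki67 turned to -0.061 and Top2a to -0.104 on the log2 scale. Without CD mouse 2 as well, Mki67 stood at -0.051 and Top2a at -0.094. In that fit, 1 member (Uhrf1) passed for ABX on CD, where 19.6% of all genes tested did. For ABX on TDD 15 members passed, where 23.5% of all genes tested did. The cause of these moves was not tested.

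Replicate numbers did not pair the mice. Correlations of same-numbered mice ranged from -0.38 to 0.26, and over 0.1 in 2, 1, 1 and 0 of 5 pairs. With the replicate block the counts were 0, 0, 0, 9 and 0. Of all genes tested, 11.2%, 0.73%, 10.2%, 12.6% and 0% passed with it. With 5 mice per group, the 95% intervals of Mki67 and Top2a included 0 in every comparison.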
